A study of Homo sapiens with 4 samples.

Results

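The genes described here encode BCR, the kinase ABL1, the nucleoporin NUP214, the adaptors CRKL, CRK, GRB2 and GAB2, the exchange factor SOS1, and the transcription factors STAT5A and STAT5B. These 10 genes, of 64252 in the count table, were found by Ensembl identifier and gene symbol. They were selected on their levels in the control libraries and their change after treatment, so both are given as a description and support nothing. Their calls come from the fit across all genes, are set beside the share of all genes called, and are no independent test of them. The RNA came from cells labelled as NB4, a cell line from acute promyelocytic leukemia that carries the PML-RARα fusion. The cells were treated for 24 h with the vehicle DMSO or with dBET1 at 8 μM, and RNA was sequenced from 2 libraries in each group. dBET1 joins a ligand of the BET bromodomain proteins to a ligand of cereblon, which brings BET proteins to a ubiquitin ligase for degradation. The comparison asked which transcripts differed after 24 h with dBET1, and these libraries do not measure BET protein.

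In signalling by ABL kinases, a phosphorylated tyrosine on the kinase or its substrate is bound by the SH2 domain of an adaptor, and the SH3 domains of that adaptor bring in the next protein. GRB2 carries the exchange factor SOS1, which loads RAS with GTP, and the scaffold GAB2, which leads to PI3K and to the phosphatase SHP2. CRKL and CRK link to exchange factors for RAP1 and RAC, and STAT5A and STAT5B enter the nucleus after phosphorylation and activate genes. BCR and ABL1 are the partners of the fusion kinase of chronic myeloid leukemia, and NUP214, a nuclear pore protein, is a fusion partner of ABL1, DEK and SET in other leukemias. The values below are counts per gene, which do not show a fusion transcript and do not separate it from the normal alleles of either partner.

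The libraries held between 28019956 and 34685645 counts. Levels are given as CPM, the usual unit of counts scaled to library size, here after the trimmed mean of M values (TMM), and as CPM per kb of the canonical transcript where genes are compared with each other. A gene was called at an adjusted p under 0.05 in edgeR's quasi-likelihood test. After dBET1, 28% of the 17971 tested genes were higher and 27.6% were lower, together 55.6%. The libraries went against the label of the cells. Of 5 neutrophil granule genes, which promyelocytes transcribe at high levels, ELANE and CTSG had 0 counts in all 4 libraries, MPO had 0 counts in both DMSO libraries, and the sum of the list was 0.521 and 0.534 CPM with DMSO and 1.83 and 0.819 CPM with dBET1. The 11 erythroid genes summed to 8710 and 9790 CPM with DMSO and to 5100 and 5040 CPM with dBET1, and 11 of 11 were lower. The cells are therefore called labelled NB4 cells. The monocyte and macrophage list summed to between 18.4 and 22.7 CPM, but its genes moved in opposite directions. Of its 5 tested genes, 4 were called higher and 1 lower. The lower gene was LYZ, at 17.9 CPM with DMSO (log2 fold change -0.698). Among the higher genes, which were low with DMSO, ITGAM rose from 0.497 to 5.32 CPM and FCGR1A from 0.0919 to 3.82 CPM. With DMSO, ITGAM had 22 and 9 counts, CSF1R 3 and 4, and FCGR1A 6 and 0. They had enough counts for testing in both libraries of a group only with dBET1. That left these genes no direction but higher, so their calls support nothing. CD14, the remaining higher gene, had 18 and 14 counts with DMSO and 27 and 48 with dBET1. The megakaryocyte list was between 3.43 and 7.8 CPM. The lymphoid list was at 29.9 and 33.9 CPM with DMSO and 12.9 and 13.1 CPM with dBET1. The part of these lists in any difference below was not tested. In bulk RNA fewer cells of a type and less RNA per cell cannot be told apart.

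The promoters of the genes were not used to choose them. RefSeq gave a window of 250 bases before to 50 bases after the start for 10 of 10 genes, on GRCh38.p14. Windows of 5 genes are printed 5′ to 3′ on the strand of the gene: both fusion partners, the most abundant adaptor, and the pair of STAT5 genes, which lie side by side and had different windows and different changes. Capitals mark the motifs found on either strand, which are the GC box (GGGCGG, or CCGCCC on the other strand) and the CCAAT box (CCAAT, or ATTGG on the other strand).
BCR, chr22:23180259-23180558, plus strand: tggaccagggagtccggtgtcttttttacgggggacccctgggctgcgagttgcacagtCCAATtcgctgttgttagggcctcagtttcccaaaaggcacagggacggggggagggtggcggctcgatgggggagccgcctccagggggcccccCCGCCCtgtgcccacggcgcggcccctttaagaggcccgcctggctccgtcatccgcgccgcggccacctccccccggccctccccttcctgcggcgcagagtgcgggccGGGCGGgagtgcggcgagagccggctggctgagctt
ABL1, chr9:130835004-130835303, plus strand: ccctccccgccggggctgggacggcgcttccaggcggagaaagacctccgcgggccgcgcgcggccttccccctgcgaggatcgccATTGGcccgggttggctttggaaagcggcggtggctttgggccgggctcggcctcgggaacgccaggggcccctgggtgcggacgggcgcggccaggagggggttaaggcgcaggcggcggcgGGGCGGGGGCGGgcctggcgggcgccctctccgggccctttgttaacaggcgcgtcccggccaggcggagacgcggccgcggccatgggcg
CRKL, chr22:20917157-20917456, plus strand: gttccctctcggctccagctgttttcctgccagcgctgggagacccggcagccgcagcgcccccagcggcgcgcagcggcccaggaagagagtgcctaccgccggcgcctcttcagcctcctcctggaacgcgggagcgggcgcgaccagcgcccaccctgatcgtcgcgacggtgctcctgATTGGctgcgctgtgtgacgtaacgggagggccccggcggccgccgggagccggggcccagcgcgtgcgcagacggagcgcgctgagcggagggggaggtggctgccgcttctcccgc
STAT5A, chr17:42287189-42287488, plus strand: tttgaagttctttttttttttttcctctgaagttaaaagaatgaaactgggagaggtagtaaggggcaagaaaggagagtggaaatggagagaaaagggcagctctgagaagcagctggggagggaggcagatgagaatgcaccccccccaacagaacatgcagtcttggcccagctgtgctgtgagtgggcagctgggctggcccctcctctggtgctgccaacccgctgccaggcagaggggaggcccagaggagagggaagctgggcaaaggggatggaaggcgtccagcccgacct
STAT5B, chr17:42276342-42276641, minus strand: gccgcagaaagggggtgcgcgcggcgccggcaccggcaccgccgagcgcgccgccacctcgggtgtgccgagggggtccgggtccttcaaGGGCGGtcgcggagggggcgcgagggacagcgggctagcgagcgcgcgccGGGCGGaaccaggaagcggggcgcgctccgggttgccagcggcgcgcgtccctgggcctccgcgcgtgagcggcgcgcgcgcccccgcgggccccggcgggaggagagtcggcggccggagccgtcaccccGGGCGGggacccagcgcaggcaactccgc

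The windows of the STAT5 pair differed in base composition. The STAT5A window was 56.3% GC with 3 CpG dinucleotides, whereas the STAT5B window was 82% GC with 55. Over 35116 promoters in the table the medians were 58.7% GC and 14 CpG dinucleotides. As few CpG dinucleotides as in STAT5A, or fewer, were found in 24.5% of promoters, and 99.7% had as many as STAT5B or fewer. The other windows held 27 (BCR), 42 (ABL1), 31 (NUP214), 39 (CRKL), 40 (CRK), 35 (GRB2), 58 (GAB2) and 9 (SOS1). GC boxes were found in 7 of the windows, up to 5 in GAB2, against 45% of all promoters with at least 1. A CCAAT box was present in BCR, ABL1, NUP214, CRKL, CRK and SOS1 and in 34.6% of all promoters. The NUP214 window also held CCGGAAG, an ETS motif present in 10.3% of promoters, and TGACGTCA, the cAMP response element, present in 1.85%. Neither the E-box CACGTG (7.26% of promoters) nor the TATA box TATAAA (11.5%) was found in any of the 10 windows. A match describes the letters of the window and is no measure of binding. The RefSeq start lay 122211 bp inside the GENCODE gene for ABL1, 12242 bp for STAT5B and 6930 bp for CRK, so each window is that of one annotated start.

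Levels with DMSO spanned a wide range. CRKL was the most abundant per length, at 156 ± 10.3 CPM per kb (SD, n = 2), at percentile 96 of 12509 coding genes tested. STAT5A followed at 141 ± 5.35 CPM per kb. NUP214 was at 90.6 ± 12.0, GRB2 at 63.8 ± 4.27, ABL1 at 46.9 ± 0.903, STAT5B at 37.6 ± 0.6 and BCR at 23.2 ± 0.924 CPM per kb. The lowest levels per length were those of GAB2 (11.2 ± 0.613 CPM per kb), CRK (9.85 ± 0.6) and SOS1 (6.81 ± 1.55), and SOS1 sat at percentile 46.8, near the middle of coding genes. Each step in this order was larger than the SD of either neighbour, although 2 libraries give that SD little precision. With the summed length of all exons in place of the canonical transcript, STAT5A was at 83.3, NUP214 at 27.7 and BCR at 12.8 CPM per kb, so the order depends on the transcript assumed.

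**Figure D1:**
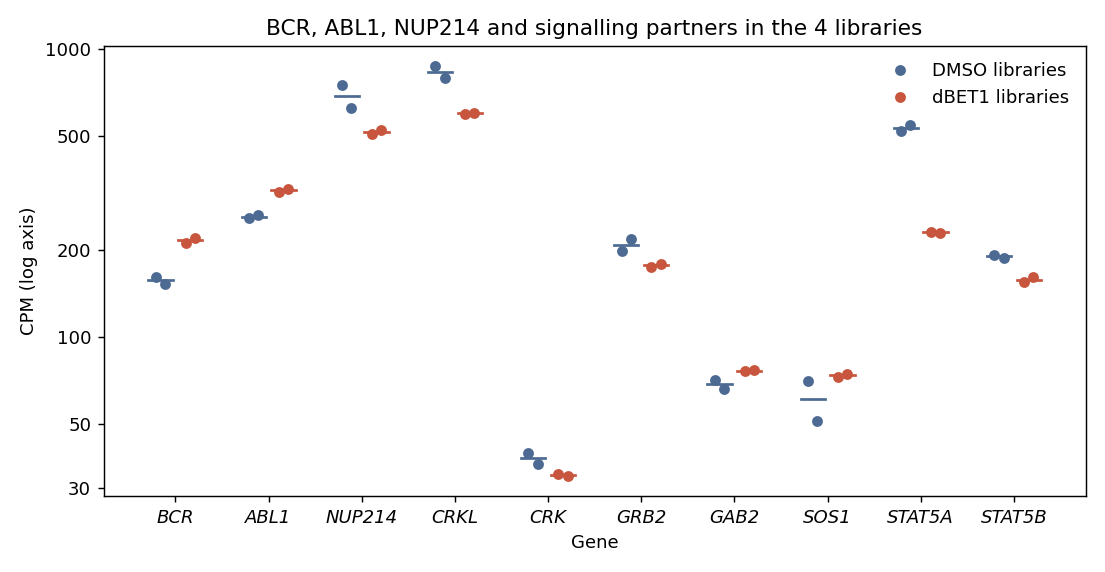
CPM on a log axis of each of the 10 genes in the 2 DMSO and 2 dBET1 libraries, with points for libraries and short lines for group means. STAT5A falls from above 500 CPM to 231 and 230 CPM, BCR and ABL1 sit higher with dBET1, and the DMSO points of NUP214 and SOS1 lie far apart.

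The fusion partners BCR and ABL1 were both higher after dBET1. BCR (ENSG00000186716, chr22:23179704-23318037, plus strand), named for the breakpoint cluster region, was at 162 and 153 CPM with DMSO and at 213 and 221 CPM with dBET1. The dBET1 libraries lay above both DMSO libraries, with group means of 157 ± 6.27 and 217 ± 5.53 CPM (SD, n = 2) and a log2 fold change of 0.46 ± 0.074 (SE). ABL1 (ENSG00000097007, chr9:130713043-130887675, plus strand), a tyrosine kinase of the cytoplasm and nucleus, was at 258 and 265 CPM with DMSO and at 318 and 327 CPM with dBET1. Its groups did not overlap, and the log2 fold change was 0.30 ± 0.068, or a ratio of 1.23. ABL1 held 1.94 and 2.11 times the CPM per kb of BCR with DMSO and 1.82 and 1.8 times with dBET1. ABL1 was called in the fit of 4 libraries and lost its call without either dBET1 library, where its log2 fold change was 0.32 without replicate 1 and 0.27 without replicate 2.

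NUP214 (ENSG00000126883, chr9:131125573-131234663, plus strand), which lines the cytoplasmic face of the nuclear pore and takes part in mRNA export, starts 237.898 kb beyond the end of ABL1. It was at 749 and 621 CPM with DMSO and at 506 and 522 CPM with dBET1. All dBET1 values lay below all DMSO values, but the DMSO libraries differed by a ratio of 1.21. The log2 fold change was -0.42 ± 0.096, and it was -0.40, with no call, without dBET1 replicate 1 and -0.21, with no call, when libraries were scaled by total counts only. NUP214 per kb was 2.14 and 1.73 times ABL1 with DMSO and 1.17 and 1.18 times with dBET1. With the summed length of all exons these ratios were 0.821 and 0.662 with DMSO and 0.449 and 0.452 with dBET1, so which of the neighbours is the more abundant depends on the transcript assumed.

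CRKL differed by a wider margin than CRK, GRB2 or GAB2, the other adaptors among the 10 genes. CRKL (ENSG00000099942, chr22:20917407-20953747, plus strand), a major substrate and partner of ABL kinases, was at 870 and 792 CPM with DMSO and at 595 and 599 CPM with dBET1. The dBET1 libraries were close to each other and below both DMSO libraries, with a log2 fold change of -0.48 ± 0.073. Its paralog CRK (ENSG00000167193, chr17:1420689-1463162, minus strand) was at 39.6 and 36.3 CPM with DMSO and at 33.4 and 33.0 CPM with dBET1. CRK was not called, with a log2 fold change of -0.19 ± 0.099 that turned to 0.02 when scaled by total counts only, and it was called, at -0.28, without DMSO replicate 2. CRKL exceeded CRK per kb by 15.8 and 15.7 times with DMSO and by 12.8 and 13.1 times with dBET1.

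GRB2, GAB2 and SOS1 form the branch toward RAS and PI3K. GRB2 (ENSG00000177885, chr17:75318076-75405709, minus strand) was at 199 and 219 CPM with DMSO and at 174 and 180 CPM with dBET1. The groups did not overlap, and the log2 fold change was -0.24 ± 0.078. Its call was lost without dBET1 replicate 1 (-0.22) or replicate 2 (-0.28) and when scaled by total counts only (-0.03). The scaffold GAB2 (ENSG00000033327, chr11:78215293-78418348, minus strand) was at 71.1 and 65.8 CPM with DMSO and at 76.3 and 76.5 CPM with dBET1. The dBET1 values were just above the DMSO values, at a log2 fold change of 0.16 ± 0.084 with no call, and the gene was called, at 0.19, without DMSO replicate 1. SOS1 (ENSG00000115904, chr2:38962206-39124345, minus strand) was at 70.4 and 51.0 CPM with DMSO and at 72.7 and 74.7 CPM with dBET1. One DMSO library of SOS1 was close to the dBET1 libraries and the other was far below. Its log2 fold change was 0.28 ± 0.143 with no call, 0.04 without DMSO replicate 2, and 0.51 with a call without DMSO replicate 1. GRB2 per kb exceeded SOS1 by 7.69 and 11.7 times with DMSO and by 6.53 and 6.55 times with dBET1. With the summed length of all exons it was 13.8 and 20.9 times with DMSO and 11.7 times in both dBET1 libraries.

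STAT5A had the widest change of the 10 genes. STAT5A (ENSG00000126561, chr17:42287547-42311943, plus strand), a transcription factor downstream of cytokine receptors, was at 517 and 546 CPM with DMSO and at 231 and 230 CPM with dBET1. Both dBET1 libraries were far below both DMSO libraries, at a ratio of 0.434 and a log2 fold change of -1.20 ± 0.070, which was -0.99 when scaled by total counts only. STAT5B (ENSG00000173757, chr17:42199176-42288633, minus strand), its close paralog, was at 193 and 189 CPM with DMSO and at 155 and 161 CPM with dBET1. Its groups did not overlap, and the log2 fold change was -0.27 ± 0.072. STAT5B lost its call without dBET1 replicate 1 (-0.25) or replicate 2 (-0.32) and when scaled by total counts only (-0.06). STAT5A per kb exceeded STAT5B by 3.61 and 3.9 times with DMSO and by 2.01 and 1.92 times with dBET1. The spans of the genes share 1087 bp on opposite strands, and 7.73% of the windows of 150 bases of STAT5A are also present in STAT5B, so some reads may have been assigned to either gene. The sum of both genes had a log2 fold change of -0.89.

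**Figure D2:**
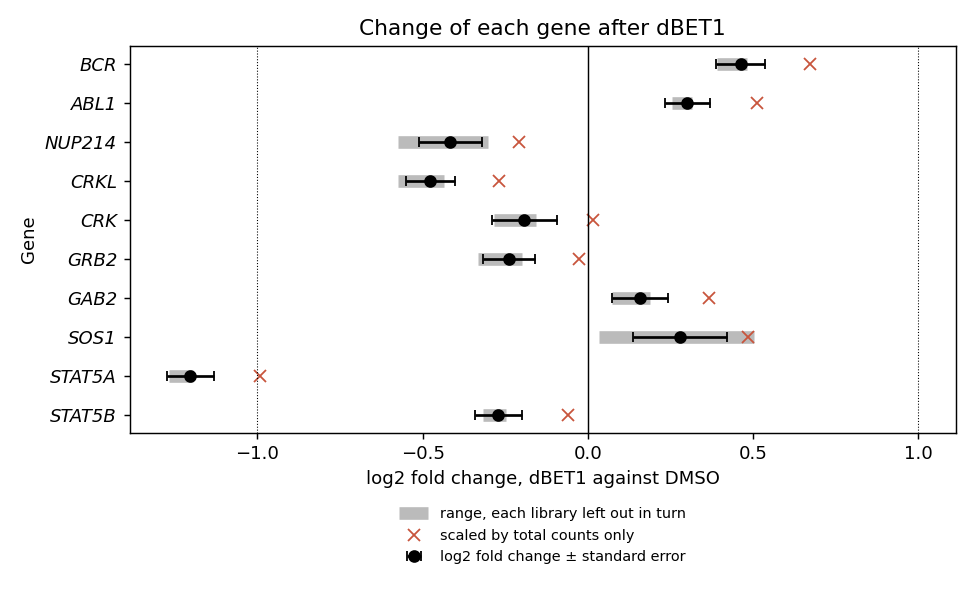
Log2 fold change (dBET1 against DMSO) of the 10 genes, with standard errors as bars, the range over fits with 1 library left out as grey bands, and crosses for scaling by total counts only. STAT5A lies at -1.20 and the other genes between -0.48 and 0.46, with the widest grey band for SOS1, and CRK crosses 0 under total counts.

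Of the 10 genes, 2 were called higher, 5 lower and 3 not called, beside 28% of all tested genes higher, 27.6% lower and 55.6% called in either direction. STAT5A was the one gene called with a change beyond 1 on the log2 scale, beside 8.54% of all genes in that direction, 16.9% in the other and 25.4% in either. CRKL, at -0.48, was the next below it. The CPM of the groups did not overlap for 10 of 10 genes and for 79.3% of all tested genes. The median log2 fold change of the 10 genes was -0.22, beside 0.05 over all tested genes. When scaled by total counts only the median of all genes was 0.26, that of the 10 genes was -0.005, and 4 were called higher and 2 lower. Leaving out DMSO replicate 1 gave 4 higher and 5 lower, leaving out dBET1 replicate 1 gave 1 and 2, and leaving out dBET1 replicate 2 gave 1 and 3.

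The spread between replicates was uneven among the genes. The coefficient of variation over the DMSO libraries was 22.7% for SOS1 and 13.2% for NUP214, between 1.6% and 6.69% for the other 8, and 6.4% as the median of genes at 30 to 1000 CPM. Over the dBET1 libraries it was between 0.205% and 2.92%. Transcript length moved with this spread. When coding genes were put into 4 classes of equal size by transcript length, the median ratio of DMSO replicate 1 to replicate 2 was 0.926 in the class of the shortest transcripts and 1.10 in that of the longest (5083 bp and above), and the median log2 fold change went from -0.30 to 0.14. SOS1 (8906 bp), NUP214 (7568 bp), BCR (6783 bp), GAB2 (6110 bp), ABL1 (5578 bp) and CRKL (5342 bp) are in that longest class, and the part of length in their values was not tested.

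The counts of each list below are to be read beside 28% of all tested genes higher and 27.6% lower. Among the 11 paralogs of the genes, 9 were tested, of which 4 rose and 3 fell. Without either dBET1 library 2 were called higher. STAT2, a mediator of interferon signals, rose from 32.4 to 67.0 CPM (log2 fold change 1.05), and STAT6, which acts after interleukin-4, rose by 0.63 on the log2 scale. SOS2 rose by 0.51, whereas STAT3 fell by 0.21. The leukocyte adaptor GRAP2, a relative of GRB2, fell from 136 to 29.9 CPM (-2.19), and GAB3 fell from 27.2 to 9.24 CPM (-1.55). Neither ABL2 (0.24) nor GAB1 (-0.07, or 0.14 when scaled by total counts only) was called, GRAP had at most 11 counts in a library, and STAT4 had 0 counts in all libraries. ABL1 held between 8.36 and 10.8 times the CPM per kb of ABL2 in the 4 libraries, and SOS2 held between 0.476 and 0.587 times that of SOS1. The call of SOS2 was lost without DMSO replicate 2 (0.30), without dBET1 replicate 1 (0.49) and without dBET1 replicate 2 (0.52). That of STAT3 was lost without dBET1 replicate 1 (-0.22) or replicate 2 (-0.23), under the replicate block, and when scaled by total counts only (-0.004).

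Of the genes that bind or restrain ABL kinases, 3 were higher and 5 lower of 19 tested out of 23, and 9 were higher and 3 lower when scaled by total counts only. Without dBET1 replicate 1 the lower genes were 2, without dBET1 replicate 2 they were 3, and without DMSO replicate 1 the higher genes were 5. ABI2, an ABL interactor of the WAVE complex, rose from 4.43 to 16.9 CPM (1.93), and CBL, a ubiquitin ligase for active tyrosine kinases, rose from 109 to 185 CPM (0.76). RIN1, which binds RAS and ABL, rose by 1.26, and lost its call when any of the 4 libraries was left out (1.13 to 1.34) and under the replicate block. UBASH3A, a negative regulator of antigen receptor signals, fell from 10.3 to 0.84 CPM (-3.61). The docking proteins DOK1 (-0.79) and DOK2 (-1.34) also fell, and DOK2 lost its call without dBET1 replicate 1 (-1.40) or replicate 2 (-1.31). In the SHC and SHP2 arm, 4 of 8 tested genes rose and 2 fell, out of 10, and 1 was lower without dBET1 replicate 2 or when scaled by total counts only. The insulin receptor substrates IRS2 (1.07) and IRS1 (0.88) and the adaptor SHC2 (1.31) rose. PTPN11, which encodes SHP2 and binds GAB2, fell from 293 to 197 CPM (-0.58), and SHC1, which recruits GRB2, fell from 101 to 75.6 CPM (-0.42, with no call at -0.37 without dBET1 replicate 2 and at -0.21 when scaled by total counts only).

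The RAS-ERK cascade downstream of GRB2 and SOS1 had 11 genes lower (40.7%) and 3 higher (11.1%) of 27 tested out of 28, beside 27.6% and 28% of all tested genes. The RAF kinase inhibitor PEBP1 (-1.55), the RAS activator RASGRP2 (-0.95) and HRAS (-0.76) fell the most, and the activator RASGRP4 (0.96), BRAF (0.56) and the RAS inactivator RASA1 (0.55) rose. The median of the list was -0.10 and turned to 0.11, with 6 genes higher and 5 lower, when scaled by total counts only. Without either dBET1 library 6 genes were lower, and without DMSO replicate 1 6 were higher. BRAF lost its call when no count filter was used (0.51). In the PI3K-AKT-mTOR cascade, toward which GAB2 leads, 9 of 26 tested genes rose and 10 fell, out of 27. The FOXO factors that AKT restrains, FOXO3 (1.39) and FOXO1 (1.18), rose, as did TSC1 (1.14), a brake on mTOR. FOXO4 (0.14) was not called. The translation repressor EIF4EBP1 (-1.19) and the mTOR complex members MLST8 (-1.10) and RPTOR (-0.87) fell. Other mTOR complex members of the list, RICTOR (0.98) and MTOR (0.27), rose, and MTOR lost its call with DESeq2 or without a count filter.

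Around STAT5, the kinases upstream and the genes known as its targets moved in both directions. Of 10 tested genes among the 11 JAK kinases and STAT regulators, 3 rose and 3 fell, and 6 were higher and 1 lower when scaled by total counts only. JAK1, which pairs with many cytokine receptors, rose from 72.4 to 126 CPM (0.80), and TYK2 rose by 0.50 and the coactivator NCOA1 by 0.33. PIAS2 fell by 0.54, the phosphatase gene PTPN2 by 0.49 and CRLF3 by 0.43. JAK2, the kinase of the erythropoietin receptor, was at 26.0 and 28.1 CPM with no call (0.11), and JAK3 had at most 5 counts in a library. NCOA1 lost its call without dBET1 replicate 1 (0.36) or replicate 2 (0.28), CRLF3 without dBET1 replicate 1 (-0.39), and PIAS2 without dBET1 replicate 2 (-0.47). PTPN2 (-0.29) and CRLF3 (-0.23) were not called when scaled by total counts only.

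Of 17 tested genes known as STAT5 targets, out of 20, 8 rose and 5 fell. The split was 8 and 2 when scaled by total counts only and 6 and 6 with DESeq2, and 8 fell without DMSO replicate 2 and 3 without dBET1 replicate 1. CISH, a feedback inhibitor that STAT5 induces, rose from 120 to 180 CPM (0.58), and SOCS1 (0.87), SOCS2 (0.59) and SOCS3 (1.65) of the same inhibitor family rose with it. BCL6, a transcriptional repressor that STAT5 is known to repress, went from 140 and 94 counts in the DMSO libraries to 8370 and 8278 after dBET1, a rise of 6.16 on the log2 scale. The cyclin genes CCND1 (-1.46, from 118 to 42.7 CPM) and CCND3 (-0.40, and -0.19 with no call when scaled by total counts only) and the erythroid and megakaryocyte repressor GFI1B (-0.50) fell. CCND2, the other cyclin D gene of the list, rose (0.47). BCL2L1, a survival gene, was at 178 CPM with DMSO and 176 CPM with dBET1 and was not called. The erythroid marker list was lower in the same dBET1 libraries, at 5100 and 5040 CPM, and its part in these values was not tested.

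Of the CRK and CRKL effectors, 2 of 18 tested genes rose and 5 fell, out of 24, whereas 8 were higher and 3 lower when scaled by total counts only. Requiring at least 10 counts in every library gave 7 higher, and leaving out DMSO replicate 1 gave 4 higher. Without DMSO replicate 2 the lower genes were 9, without dBET1 replicate 1 they were 2, and without dBET1 replicate 2 they were 3. The RAC exchange factor DOCK2 (-2.69, from 3.20 to 0.493 CPM), its partner ELMO1 (-1.39) and VAV2 (-1.23) fell, and ELMO2 (0.71) and the focal adhesion protein gene PXN (0.53) rose. ELMO1 lost its call without dBET1 replicate 1 (-1.11). DOCK2 had 5 and 25 counts in the dBET1 libraries and was at -1.97 without replicate 1 and -4.25 without replicate 2 of them. DOCK2 had enough counts for testing in both libraries of a group only with DMSO. That left it no direction but lower, so its call supports nothing. RAPGEF1, the RAP1 exchange factor that CRK and CRKL bind, was at 77.9 and 86.5 CPM with no call (0.15). The median of the list was -0.12 and turned to 0.09 when scaled by total counts only. In the SRC family list, 5 of 7 tested genes fell and 0 rose, out of 12, beside 27.6% and 28% of all tested genes, at a median of -0.39. The 5 included the receptor phosphatase gene PTPRC (-1.73, from 138 to 41.7 CPM), FYN (-0.80) and CSK (-0.72), which restrains SRC kinases. With total counts only, 3 of the 7 were lower and 1 was higher, and 3 were lower without dBET1 replicate 1.

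The list of nuclear pore and export partners of NUP214 also holds its fusion partners DEK, SET, SQSTM1 and XKR3. Of its 15 tested genes, 10 were lower and 3 higher, beside 27.6% and 28% of all tested genes, at a median of -0.38. When scaled by total counts only, 6 were lower, at a median of -0.17. NUP88, which binds NUP214 at the pore, fell from 76.8 to 33.5 CPM (-1.20). SET, a chromatin protein and fusion partner of NUP214, fell from 970 to 522 CPM (-0.89), and the export factor RAE1 fell by 0.79. SQSTM1, an autophagy receptor gene and another fusion partner of NUP214, rose from 172 to 477 CPM (1.47), and the export factors NXF1 (0.71) and GLE1 (0.70) rose. XKR3, a membrane protein gene of chromosome 22 that has been found fused to NUP214, stood at 381 and 392 counts in the DMSO libraries and at 347 and 371 after dBET1, with no call (-0.11, or 0.10 when scaled by total counts only). Over all lists, each gene counted once, 155 of 180 genes were tested. Beside 28% and 27.6% of all tested genes, 39 of the 155 (25.2%) were higher and 59 (38.1%) lower, at a median of -0.07. These became 62 higher, 34 lower and 0.14 when scaled by total counts only, and 30 higher and 37 lower without dBET1 replicate 1.

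**Figure D3:**
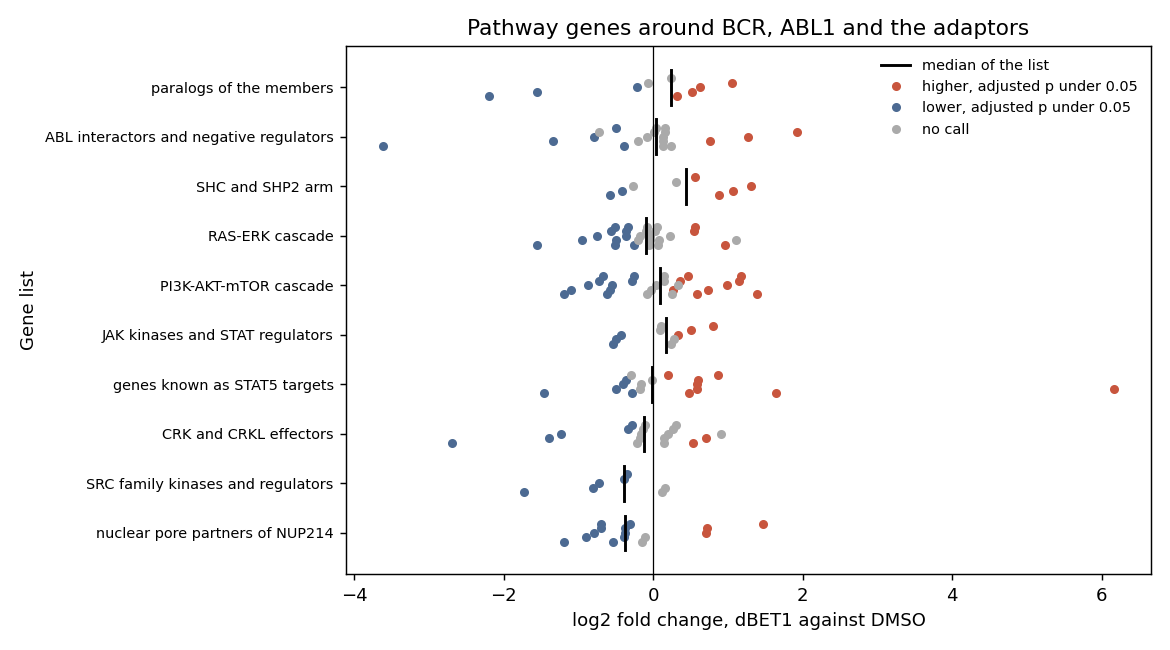
Log2 fold change (dBET1 against DMSO) of each tested gene of the 10 pathway lists, coloured by its call at an adjusted p under 0.05, with a black bar at the median of each list. The SRC family and nuclear pore lists have their medians at -0.39 and -0.38, and the RAS-ERK and CRK effector medians, at -0.10 and -0.12, turn above 0 when scaled by total counts only.

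Position was not used to choose the genes, so the coding genes within 500 kb of BCR, CRKL, ABL1 and NUP214 were described as well. Of 43 such genes 31 were tested, of which 15 were higher and 6 lower, beside 28% and 27.6% of all genes, and 9 were higher when at least 10 counts were required in every library. At CRKL, 15 of 15 genes were tested, with 11 higher and 1 lower, whereas CRKL itself was lower. KLHL22, a substrate adaptor of a ubiquitin ligase, rose from 15.9 to 51.3 CPM (1.69), the membrane fusion gene SNAP29 from 207 to 440 CPM (1.09) and LZTR1, a negative regulator of RAS proteins, from 173 to 265 CPM (0.61). THAP7 fell by 0.49. MED15, a Mediator subunit gene, rose by 0.31 and lost its call without dBET1 replicate 1 (0.30) or replicate 2 (0.30). Several genes that rose there were low, such as SCARF2, which went from 1.10 to 7.87 CPM (2.85). Others had enough counts for testing only in the dBET1 libraries. LRRC74B had 2 and 2 counts with DMSO and 40 and 36 with dBET1, and AIFM3 had 11 and 3, then 78 and 101. For such genes the count filter left no direction but higher, so their calls support nothing.

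At BCR, 5 of 13 neighbours were tested, of which the zinc finger gene ZNF70 (0.89) and RAB36 (3.47, at 0.069 CPM with DMSO) rose. RAB36 had 1 and 3 counts with DMSO and passed the count filter through its 26 and 21 counts with dBET1. CHCHD10, a mitochondrial protein gene, fell from 68.7 to 16.0 CPM (-2.10), and SMARCB1, a subunit of the SWI/SNF chromatin remodeler, fell from 57.7 to 31.4 CPM (-0.88). Around ABL1 and NUP214, 11 of 15 neighbours were tested. FAM78A fell from 87.2 to 44.5 CPM (-0.97), as did the exosome gene EXOSC2 (-0.31) and NCS1 (-0.55), and QRFP rose by 2.13. QRFP had 8 and 10 counts with DMSO and also passed the count filter through its dBET1 libraries (39 and 41). EXOSC2 lost its call without dBET1 replicate 1 (-0.28) or replicate 2 (-0.36), and NCS1 without dBET1 replicate 2 (-0.36). Neither EXOSC2 (-0.097) nor NCS1 (-0.35) was called when scaled by total counts only. The median level with DMSO was 0.742 CPM per kb for tested neighbours of BCR, 1.38 for those of CRKL and 9.06 on chromosome 9, beside 7.87 for all tested coding genes.

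The span of 2225.957 kb between CRKL and BCR was examined after its values had been seen. It held 28 coding genes, of which 23 were tested, with 12 higher and 6 lower, beside 28% and 27.6% of all tested genes. The 12 include genes that passed the count filter only through dBET1, such as LRRC74B, AIFM3 and RAB36. At the top, 7 of the 23 (30.4%) lay above the 90th percentile of CPM per kb with DMSO, which 10% of coding genes exceed by definition. They included SDF2L1 (406 CPM per kb), YDJC (366), the tumor antigen gene PRAME (272) and the ubiquitin-conjugating enzyme gene UBE2L3 (271). Beside these, 7 of the 28 genes were under 1 CPM in every library, and 3 had 0 counts in all libraries. The levels of the 2 ends were CRKL at 156 and BCR at 23.2 CPM per kb.

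**Figure D4:**
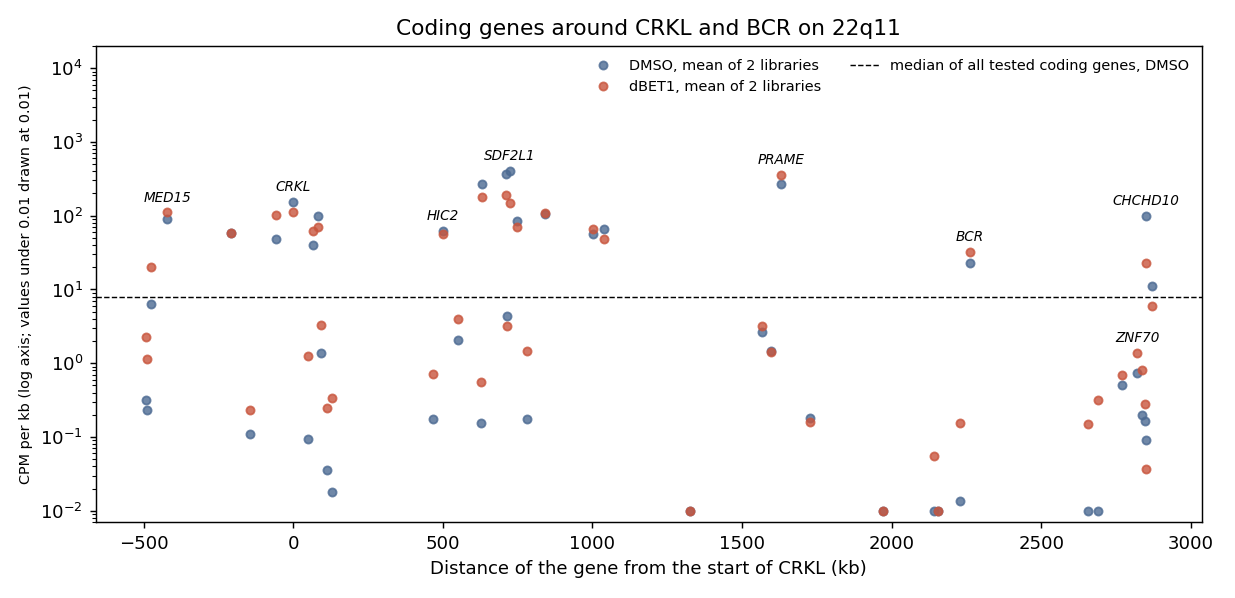
Level in CPM per kb (log axis) of the coding genes of chromosome 22 against their distance from the start of CRKL in kb, as means of 2 DMSO and 2 dBET1 libraries, with the median of coding genes dashed. CRKL, UBE2L3, YDJC, SDF2L1 and PRAME lie above 100 CPM per kb with DMSO, whereas the genes next to BCR are mostly below the dashed line, at a median of 0.742 CPM per kb with DMSO for those tested.

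Sequences shared with other genes touched 4 of the 10. Of the 150-base windows of the BCR transcript, 5.37% also occur in the pseudogene BCRP3 and 3 further annotated genes. These 4 genes summed to between 39 and 68 counts in a library, against 4292 or more for BCR. Those were the counts of BCRP3 alone, so the 3 others had 0 counts or were absent from the count table. How shared reads were assigned to BCR or to them is therefore not known. The 9 named BCR pseudogenes, a different set that includes BCRP3, summed to between 69 and 82 counts. Of the NUP214 windows 6.16% occur in 2 other annotated genes, which summed to between 24 and 49 counts. No window of ABL1, CRKL, CRK, GRB2, GAB2 or SOS1 was shared with another annotated gene.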

How the data were processed

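RNA from 4 libraries of labelled NB4 cells was sequenced in paired reads of 150 bases, 2 libraries each for DMSO and dBET1. The labels give TRIzol and the study's methods another kit for RNA extraction. The authors filtered reads, aligned them to hg38 with HISAT2 2.2.0, and used StringTie for assembly and for abundance. They deposited whole-number, unnormalized read counts for each gene. The step that turned alignments or assemblies into these counts, and its strand setting, was not given in the sources used here. Of 64252 genes, 56105 were found in GENCODE 44, and 2.57% of counts were in genes not found.

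The counts were tested with edgeR 4.0.16 in R 4.3.3 (filterByExpr, TMM factors of 0.918 to 1.08, quasi-likelihood F test, group as the single term, Benjamini-Hochberg adjustment over 17971 genes). The study's own thresholds, an adjusted p under 0.05 and a log2 fold change beyond 1, were counted as well. The method was tested on simulated counts in which few genes changed, as many up as down, with the same dispersion for all genes. In these data 55.6% of genes were called, so that test does not bear on the scaling or the calls here. CPM were computed on the TMM-scaled library size, and the standard error is the log2 fold change divided by the square root of F. Sequence features were read from RefSeq windows with Python 3.11.15. The depth of 28019956 to 34685645 counts per library limits precision through counting error only. Replicates carry a number but no statement of separate cultures, so p-values measure only the spread between these samples, which may be technical. Within groups the counts differed by more than sampling noise (chi-square per degree of freedom 23.6 for DMSO and 8.14 for dBET1).

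The genes and lists were chosen with earlier results of these data known. Named genes were all 10 genes, their paralogs, up to 3 genes with the largest and 3 with the smallest log2 fold change among the called genes of each list, JAK2, SHC1, PTPN11, RAPGEF1, XKR3 and CISH, neighbours within 500 kb and the 3 genes closest in level to BCR and to ABL1. Neighbours under 1 CPM, and some others, were counted and not named, and some results are not reported here. SOCS2, BCL2L1, JAK3, RAB36, FOXO4, RICTOR, MTOR and CCND2, and the genes named between CRKL and BCR, were chosen after their values were seen. Alternatives were other scalings (DESeq2 size factors, total counts), DESeq2 1.42.0, other count filters, a replicate block, counts divided by 2, each library left out, and, added after seeing the data, the summed exon length.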

Additional observations from a re-analysis of the deposited data

How the results depend on the processing

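Directions of the 10 genes were the same under all settings tried, except that CRK turned from -0.19 to 0.017 when scaled by total counts only. That scaling moved the median of all genes from 0.048 to 0.257, gave 4 of the 10 genes higher and 2 lower and 62 and 34 genes of the pathway lists, ended the calls of NUP214 (-0.207), GRB2 (-0.027) and STAT5B (-0.061), and added GAB2 (0.367) and SOS1 (0.486). Requiring at least 10 counts in every sample ended the call of GRB2 (-0.168), added GAB2 (0.229) and left 9 neighbours higher, and counts divided by 2 ended that of GRB2 (-0.206). With the fold limit as well, 3032 genes were higher and 1535 lower, against 5038 and 4953 without it.

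With 1 library left out in turn, genes called ranged from 3356 to 5118 higher and from 3777 to 5343 lower, the 10 genes from 1 to 4 higher and from 2 to 6 lower, genes of the pathway lists from 29 to 48 higher and from 37 to 67 lower, and neighbours from 13 to 18 higher and from 4 to 7 lower. The lone sample of a group was then assumed to vary like the other group. The log2 fold changes ranged from 0.255 to 0.315 for ABL1, -0.575 to -0.301 for NUP214, -0.284 to -0.155 for CRK, -0.332 to -0.199 for GRB2, 0.073 to 0.188 for GAB2, 0.035 to 0.505 for SOS1 and -0.318 to -0.247 for STAT5B. BCR, CRKL and STAT5A were called in every fit. The cause of these shifts was not tested.

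The labels do not say whether same-numbered libraries were paired. Over genes, the deviations of same-numbered libraries had a correlation of -0.0075, which with 2 libraries per group can neither show nor exclude a pairing. With the number as a replicate block, 4976 genes were higher and 4897 lower, 2 and 5 of the 10 genes, 37 and 59 of the lists and 15 and 6 of the neighbours.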

Other observations

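Over the 4 libraries, the tested genes closest to BCR in log2(CPM + 0.5), by Euclidean distance, included OS9 (0.134) and OGDH (0.199). OS9, which acts in the degradation of proteins of the endoplasmic reticulum, was at 158 and 166 CPM with DMSO and at 222 and 221 CPM with dBET1. Those closest to ABL1 were NBPF8 (0.0525), SRRT (0.115) and USP22 (0.144). NBPF8, of a gene family with many near-identical copies whose counts are uncertain, was at 265 and 265 CPM with DMSO and at 314 and 333 CPM with dBET1. With 4 libraries in 2 groups, such closeness reflects level and group difference alone and says nothing of shared function or control.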
